A study of Mus musculus with 6 samples.

Results

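The genes described here are 45 genes of mitosis and chromosome segregation, named by symbol as a list and grouped by role into the spindle checkpoint and anaphase onset, kinesins and spindle, centromere and kinetochore, condensin and chromosome structure, cytokinesis, and mitotic entry kinases and phosphatases. Of the 45 genes, 38 had a probe on the array (55 probes), and 37 had a probe with a measured ratio on all 6 arrays. These 37 were tested among the 9160 genes that met the same condition, of 10698 named genes on the array. Espl1, Kif2c, Cenpe, Ncapd2, Ncaph, Anln and Plk1 had no probe named for them. Kif4 had 1 probe, which was listed at 0 on 1 array, and is described by its values only.

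The cells were RAW 264.7, an established mouse macrophage line that divides in culture. The labels also write RAW 264.4 in places. Cells cultured for 48 h with lipopolysaccharide (LPS, 100 ng/ml) and lipopolysaccharide-binding protein (LBP, 100 pM) were compared with untreated cells cultured for 48 h. LPS is a component of the outer membrane of Gram-negative bacteria that macrophages sense through Toll-like receptor 4, and LBP is the serum protein that delivers it. Labelled total RNA of the 2 conditions was hybridised together on 2-colour arrays. On 3 arrays (sets 1, 2 and 3) the treated RNA carried the red dye Cy5 and the untreated RNA the green dye Cy3, and on the other 3 arrays (sets 1, 2 and 3) the dyes were exchanged. They are called the treated-Cy5 and the treated-Cy3 arrays, and their values are given in the order of sets 1, 2 and 3. Both groups were the same line with no genetic change named in the labels. The 2 agents were given together, so LPS and LBP cannot be told apart, and 48 h is the one time measured.

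Every ratio below is log2 of treated over untreated, with the sign turned on the treated-Cy3 arrays, so that a negative value means less of the transcript in treated cells. No source used here states the base of the deposited logarithm, and it was taken as 2. If it were the natural logarithm, every fold change would be larger, with the same sign. The 2 dye orientations of a set were averaged, the error given is the SD of these 3 means (n = 3), and p-values are from limma, two-sided, adjusted by the Benjamini-Hochberg method over 9160 genes, with adjusted p under 0.05 counted as passing. Because the labels do not tie the sets to separate cultures, a p-value here measures only how the sets spread, which may be technical. A ratio gives no level, so neither the abundance of these transcripts nor the identity of the line could be read from it.

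Mitosis separates the duplicated chromosomes into the daughter cells. Cyclin-dependent kinase and the Aurora and Polo kinases drive entry, condensin and topoisomerase II compact the chromosomes, kinesins and microtubule-binding proteins build the spindle, and kinetochores attach chromosomes to it. The spindle checkpoint holds the anaphase-promoting complex back until all kinetochores are attached, after which separase cuts cohesin and the central spindle directs cytokinesis. Many transcripts of this programme peak in G2 and M phase, and their promoters often carry a CHR element (TTTGAA) and CCAAT boxes, bound by the DREAM or MMB complexes and by NF-Y.

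Mitosis genes were lower in treated cells in every role group. Of the 37 genes tested, 31 fell, 0 rose and 6 did not pass. All 37 mean ratios were below 0. The share of all genes tested that fell was 12.8% (1171 of 9160), and the share that rose was 15% (1371 of 9160). The median ratio of the 37 genes was -0.74, and that of all genes tested was -0.01. The ratio was below 0 on all 6 arrays for 31 of the 37 genes, compared with 14.5% of all genes tested. RNA came from whole cultures, so fewer cells in mitosis and less RNA per cell cannot be told apart.

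The decreases were mostly between 1.5-fold and 2-fold. Of the 31 genes that fell, 22 were at least 1.5-fold lower, a size reached in the lower direction by 2.58% of all genes tested (236 of 9160). Racgap1, Stmn1, Cenpf and Mki67 were at least 2-fold lower. The 6 genes that did not pass were Kif22, Aurkb, Smc2, Ncapg, Smc4 and Cks2. When the exact zeros in the deposited values were kept as ratios of 0 rather than read as missing, 24 of 38 genes fell and 0 rose, against 5.93% of all genes lower (634 of 10698), and all 24 were also among the 31. The genes lost in this way were Bub1, Bub3, Ttk, Tpx2, Ndc80, Aurka and Cks1b, with limma adjusted p between 0.0601 (Aurka) and 0.106 (Ttk). Apart from Cks1b (-0.79 and -0.75), these genes had no zeros on their probes and the same ratio in both fits. Their own zeros therefore did not alter these calls. The prior degrees of freedom that limma estimates over all genes were 5.84 with zeros missing and 1.41 with zeros kept.

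**Figure D1:**
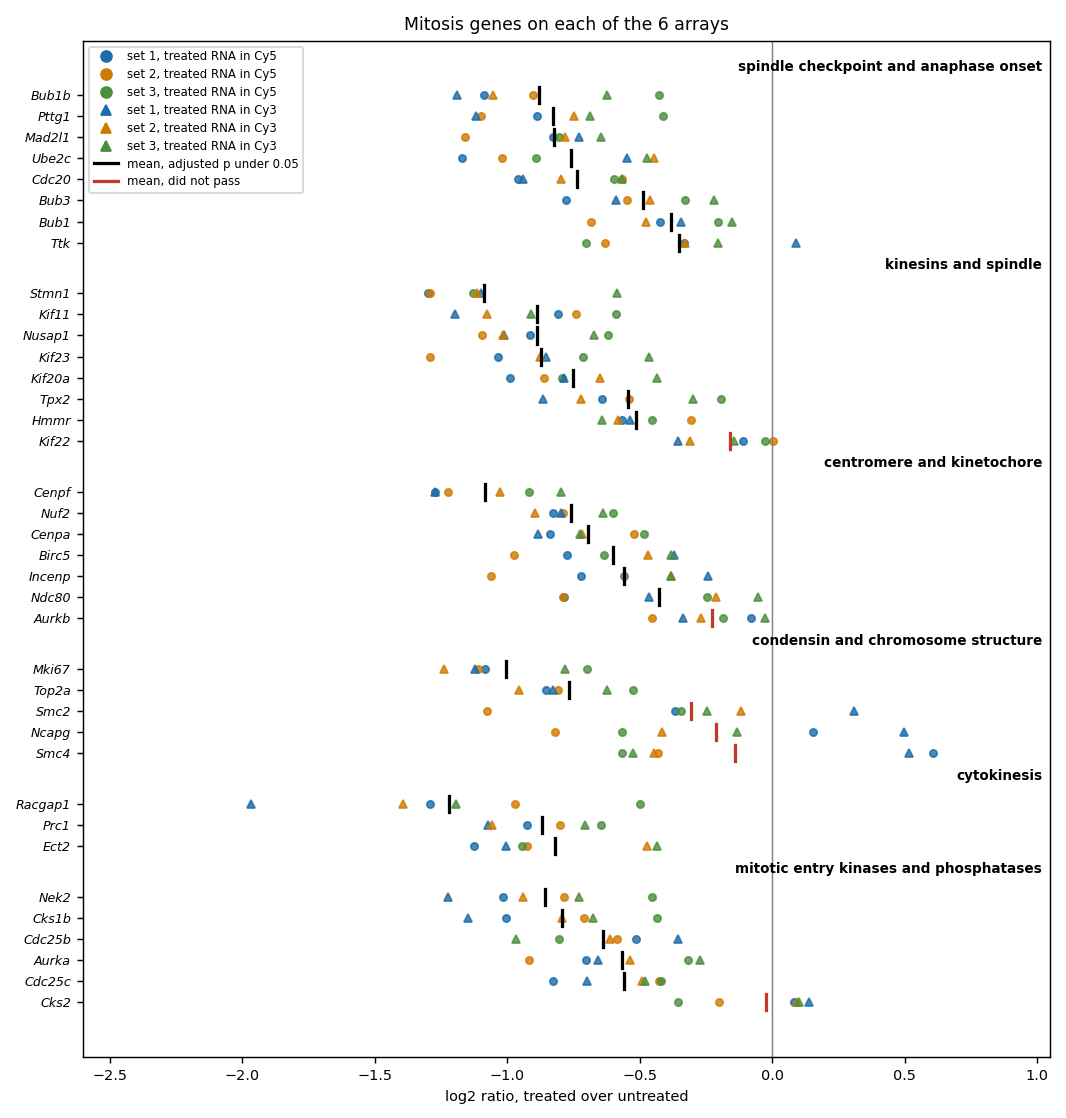
Log2 ratio of treated over untreated (horizontal axis) for the 37 mitosis genes tested, by role group, with the mean of the 3 set means marked. Each array is 1 point, coloured by set and shaped by dye orientation. Nearly all points lie left of 0, from Racgap1 with a mean of -1.22 to Cks2 with a mean of -0.02, and Smc4 and Ncapg have points on both sides of 0.

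Promoter sequences were taken from RefSeq (GRCm38.p6) for genes of the list, because CHR and CCAAT elements are the sequence features these genes are known to share and were not used to choose them. Of the 45 genes, 38 had a promoter entry, giving 41 promoters of 300 bases (250 before the start of the gene and 50 after it). TTTGAA on either strand was in 73.2% of these 41 promoters (30), in 17.9% of all 32851 promoters of the table and in 13.5% of the 9300 promoters of genes tested. CCAAT on either strand was in 78% of the mitosis promoters (32), 37.4% of all promoters and 37.7% of those of genes tested. Both motifs occurred together in 65.9% of the mitosis promoters (27), against 6.95% of all promoters. Of the 41 promoters of DNA replication genes tested, 58.5% held CCAAT (24), 12.2% TTTGAA (5) and 7.32% both (3). The motifs TTTGGCGC or TTTCGCGC, typical of E2F sites in genes of DNA synthesis, were in 2.44% of the mitosis promoters (1), in 0.813% of all promoters and in 22% of 41 promoters of DNA replication genes (9). A match of letters does not show that a factor binds there.

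The windows below run from 150 bases before the start of the gene to 30 bases after it, 5′ to 3′ along the gene's strand, with TTTGAA or CCAAT, or their reverse complements TTCAAA and ATTGG, in capitals. The first 6 are genes that fell, from several role groups, with both motifs in the window. In the windows shown no motif overlaps another. Racgap1 is on the minus strand at chr15:99651627-99651806, Cenpf on the minus strand at chr1:189688057-189688236, and Mki67 on the minus strand at chr7:135716350-135716529. Kif11 is on the plus strand at chr19:37376232-37376411, Kif23 on the minus strand at chr9:61946770-61946949, and Cdc20 on the minus strand at chr4:118437314-118437493. Nuf2, on the minus strand at chr1:169531435-169531614, is shown as a gene that fell with neither motif in its window. Cks2, on the plus strand at chr13:51645082-51645261, is shown as a gene that did not pass, with CCAAT boxes and no TTTGAA.
Racgap1: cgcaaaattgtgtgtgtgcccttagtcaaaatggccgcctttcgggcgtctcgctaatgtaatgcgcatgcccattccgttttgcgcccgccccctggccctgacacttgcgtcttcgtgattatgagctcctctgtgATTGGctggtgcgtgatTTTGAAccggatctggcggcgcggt
Cenpf: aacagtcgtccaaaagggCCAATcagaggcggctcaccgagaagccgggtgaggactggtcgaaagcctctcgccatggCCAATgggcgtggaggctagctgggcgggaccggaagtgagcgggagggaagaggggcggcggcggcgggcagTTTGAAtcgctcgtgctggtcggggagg
Mki67: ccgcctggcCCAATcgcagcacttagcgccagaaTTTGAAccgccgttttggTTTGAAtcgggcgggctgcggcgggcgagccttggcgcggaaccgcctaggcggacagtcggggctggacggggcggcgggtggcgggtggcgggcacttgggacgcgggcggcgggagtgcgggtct
Kif11: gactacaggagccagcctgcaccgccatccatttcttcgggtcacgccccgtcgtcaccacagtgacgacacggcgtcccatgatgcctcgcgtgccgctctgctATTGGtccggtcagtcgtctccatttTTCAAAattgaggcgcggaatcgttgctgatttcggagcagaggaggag
Kif23: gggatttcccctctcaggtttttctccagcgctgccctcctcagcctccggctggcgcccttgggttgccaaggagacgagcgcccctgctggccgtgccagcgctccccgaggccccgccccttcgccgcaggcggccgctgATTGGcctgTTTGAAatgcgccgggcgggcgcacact
Cdc20: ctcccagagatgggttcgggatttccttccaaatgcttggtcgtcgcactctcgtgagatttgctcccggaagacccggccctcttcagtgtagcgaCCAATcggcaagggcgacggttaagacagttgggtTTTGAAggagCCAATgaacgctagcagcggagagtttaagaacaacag
Nuf2: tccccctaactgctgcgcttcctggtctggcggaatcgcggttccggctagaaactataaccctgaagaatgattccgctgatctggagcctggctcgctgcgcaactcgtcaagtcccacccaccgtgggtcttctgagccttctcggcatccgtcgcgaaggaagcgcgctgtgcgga
Cks2: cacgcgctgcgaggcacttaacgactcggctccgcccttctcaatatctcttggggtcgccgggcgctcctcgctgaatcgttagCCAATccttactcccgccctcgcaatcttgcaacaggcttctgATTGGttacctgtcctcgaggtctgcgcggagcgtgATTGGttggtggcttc

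In Racgap1 and Kif23 the ATTGG lay a short distance before the TTTGAA, both beside the start of the gene. The start is counted as position 1 and the base before it as -1, with each motif given by its first base along the gene's strand. In Racgap1 ATTGG began at -12 and TTTGAA at 6, and in Kif23 they began at -7 and 3. In Kif11 ATTGG began at -45 and TTCAAA at -19. Mki67 had 2 copies of TTTGAA, at -116 and at -98. Among the 30 genes that were tested and had a promoter entry, presence of TTTGAA went with no visible gap in the median ratio. The median was -0.76 for the 21 genes with TTTGAA and -0.76 for the 9 genes without it. The ratios ran from -1.22 to -0.16 with TTTGAA and from -0.89 to -0.02 without it. With CCAAT the median was -0.75 (24 genes, -1.22 to -0.02), and without it -0.79 (6 genes, -0.89 to -0.43). These are descriptions over genes, with no test.

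Of the spindle checkpoint and anaphase genes, 8 of 8 tested fell, with a median of -0.75. These genes delay anaphase (Bub1, Bub1b, Bub3, Mad2l1 and Ttk), start it (Cdc20 and Ube2c) or inhibit separase before it (Pttg1). Bub1b, which encodes the checkpoint protein BubR1, gave ratios of -1.09, -0.90 and -0.43 in sets 1, 2 and 3 on the treated-Cy5 arrays, and of -1.19, -1.06 and -0.62 on the treated-Cy3 arrays. All 6 arrays were low, set 3 the least. Its mean was -0.88 ± 0.32 (SD, n = 3), 1.84-fold lower (limma adjusted p = 0.00145). Pttg1, which encodes securin, the inhibitor of separase, gave -0.89, -1.10 and -0.41 on the treated-Cy5 arrays and -1.12, -0.75 and -0.69 on the treated-Cy3 arrays. Its mean was -0.83 ± 0.24 (SD, n = 3), 1.77-fold lower (limma adjusted p = 0.000968).

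The smallest decreases in this group were those of the checkpoint kinases Bub1 and Ttk. Bub1, a kinase that recruits checkpoint proteins to the kinetochore, gave -0.42, -0.68 and -0.20 on the treated-Cy5 arrays and -0.34, -0.48 and -0.15 on the treated-Cy3 arrays. Its mean was -0.38 ± 0.20 (SD, n = 3; limma adjusted p = 0.0233), and it did not pass without set 2 (limma adjusted p = 0.114). Ttk, the kinase Mps1 that starts checkpoint signalling, gave -0.33, -0.63 and -0.70 on the treated-Cy5 arrays and 0.09, -0.33 and -0.20 on the treated-Cy3 arrays. Ttk was thus below 0 on 5 of 6 arrays, and was the one gene that fell without being below 0 on all 6. Its mean was -0.35 ± 0.20 (SD, n = 3; limma adjusted p = 0.0315), and it did not pass without set 2 or without set 3 (limma adjusted p = 0.134 and 0.126).

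Between these, Mad2l1 (Mad2, which binds and restrains Cdc20) had a mean of -0.82 ± 0.13. Bub3, the partner of Bub1 and of BubR1, had a mean of -0.49 ± 0.21. Cdc20, the activator of the anaphase-promoting complex that the checkpoint targets, had a mean of -0.74 ± 0.19. Ube2c, the ubiquitin-conjugating enzyme of that complex, had a mean of -0.76 ± 0.09. All of these are means with the SD of 3 sets, and all passed, with limma adjusted p from 0.00036 (Mad2l1) to 0.00863 (Bub3). Genes that hold anaphase back and genes that start it were both among those that fell.

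Of the kinesin and spindle genes, 7 of 8 tested fell, with a median of -0.81. Stmn1 encodes stathmin, which binds tubulin and destabilises microtubules, in interphase as well as in mitosis. Its ratios were -1.30, -1.29 and -1.13 on the treated-Cy5 arrays and -1.10, -1.11 and -0.59 on the treated-Cy3 arrays. Its mean was -1.09 ± 0.20 (SD, n = 3), 2.12-fold lower (limma adjusted p = 0.000152). Kif11, the Eg5 motor that pushes the spindle poles apart, gave -0.81, -0.74 and -0.59 on the treated-Cy5 arrays and -1.20, -1.08 and -0.91 on the treated-Cy3 arrays. Here each treated-Cy3 array was lower than the treated-Cy5 array of the same set, and the mean was -0.89 ± 0.13 (SD, n = 3; limma adjusted p = 0.000243).

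At the other end of this group stood Hmmr and Kif22. Hmmr, which anchors spindle poles and is also a hyaluronan receptor, gave -0.57, -0.31 and -0.45 on the treated-Cy5 arrays and -0.54, -0.58 and -0.64 on the treated-Cy3 arrays. Its set means were close together (-0.55, -0.44 and -0.55), with a mean of -0.51 ± 0.06 (SD, n = 3; limma adjusted p = 0.00259). Single probes were less even. One of its 2 probes gave -0.46, -0.07 and -0.03 on the treated-Cy5 arrays and -0.67, -0.53 and -0.55 on the treated-Cy3 arrays. Kif22, a chromosome-bound kinesin that moves chromosome arms away from the poles, gave -0.11, 0.00 and -0.03 on the treated-Cy5 arrays and -0.36, -0.31 and -0.14 on the treated-Cy3 arrays. With a mean of -0.16 ± 0.07 (SD, n = 3) it did not pass (limma adjusted p = 0.193), and no array reached the smallest mean decrease among genes of this group that fell.

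The other motors and spindle proteins lay in between. Kif20a and Kif23, kinesins of the central spindle, had means of -0.75 ± 0.14 and -0.87 ± 0.26. Nusap1, which bundles spindle microtubules, had a mean of -0.89 ± 0.21, and Tpx2, which activates Aurora A on the spindle, had a mean of -0.54 ± 0.27 (SD, n = 3 for each). All of these passed. The probe of Kif4, a kinesin that binds chromosome arms, gave -0.48, -1.16 and -0.42 on the treated-Cy5 arrays, and on the treated-Cy3 arrays it was listed at 0 in set 1 and gave -0.38 and -0.20 in sets 2 and 3. Every measured value of Kif4 was below 0, and it was not tested.

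Of the centromere and kinetochore genes, 6 of 7 tested fell, with a median of -0.60. Cenpf, a large kinetochore protein that accumulates in G2, gave -1.27, -1.22 and -0.92 on the treated-Cy5 arrays and -1.27, -1.03 and -0.80 on the treated-Cy3 arrays. The orientations gave nearly the same values in each set, with set 3 nearest 0. Its mean was -1.09 ± 0.21 (SD, n = 3), 2.12-fold lower (limma adjusted p = 0.000174). Nuf2, a subunit of the Ndc80 complex that grips microtubules, gave -0.83, -0.79 and -0.60 on the treated-Cy5 arrays and -0.80, -0.90 and -0.64 on the treated-Cy3 arrays. Its mean was -0.76 ± 0.12 (SD, n = 3; limma adjusted p = 0.000517).

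Ndc80 encodes the direct partner of Nuf2 in that complex. Its ratios were -0.78, -0.79 and -0.25 on the treated-Cy5 arrays and -0.47, -0.21 and -0.05 on the treated-Cy3 arrays. They spread from near 0 to the level of Nuf2, and the mean was -0.43 ± 0.25 (SD, n = 3; limma adjusted p = 0.0209). Ndc80 did not pass without set 1 or without set 2 (limma adjusted p = 0.0769 and 0.081). The chromosomal passenger complex, which corrects faulty attachments, was represented by its kinase Aurkb, its scaffold Incenp and its targeting subunit Birc5 (survivin). Aurkb gave -0.08, -0.46 and -0.18 on the treated-Cy5 arrays and -0.34, -0.27 and -0.03 on the treated-Cy3 arrays. It was below 0 on all 6 arrays, yet with a mean of -0.23 ± 0.13 (SD, n = 3) it did not pass (limma adjusted p = 0.0934).

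Birc5 and Incenp both fell, with means of -0.60 ± 0.11 and -0.56 ± 0.14 (SD, n = 3 for each). Whether Aurkb differed from its partners was not tested. Cenpa, the histone H3 variant that marks the centromere, fell with a mean of -0.70 ± 0.14 (SD, n = 3). The limma adjusted p of these 3 genes ran from 0.000968 (Cenpa) to 0.00283 (Incenp).

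Of the condensin and chromosome structure genes, 2 of 5 tested fell, and the median was -0.31. The 2 were Mki67 and Top2a. Mki67 encodes the proliferation antigen Ki-67, which coats mitotic chromosomes, and gave -1.08, -1.11 and -0.70 on the treated-Cy5 arrays and -1.12, -1.24 and -0.78 on the treated-Cy3 arrays. Its mean was -1.01 ± 0.23 (SD, n = 3), 2.01-fold lower (limma adjusted p = 0.000325). Top2a, the topoisomerase that untangles sister chromatids, gave -0.85, -0.81 and -0.52 on the treated-Cy5 arrays and -0.83, -0.96 and -0.62 on the treated-Cy3 arrays. Its mean was -0.77 ± 0.17 (SD, n = 3; limma adjusted p = 0.000711).

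The 3 condensin subunits with a tested probe did not pass, and in Smc4 and Ncapg set 1 had the opposite sign to sets 2 and 3. Smc4, a core ATPase of condensin, gave 0.61, -0.43 and -0.57 on the treated-Cy5 arrays and 0.52, -0.44 and -0.53 on the treated-Cy3 arrays. The orientations matched within each set, set 1 was above 0, and the mean was -0.14 ± 0.61 (SD, n = 3; limma adjusted p = 0.648). Ncapg, a regulatory subunit of condensin I, gave 0.15, -0.82 and -0.57 on the treated-Cy5 arrays and 0.50, -0.42 and -0.13 on the treated-Cy3 arrays. Its set means were 0.33, -0.62 and -0.35, and their mean was -0.21 ± 0.49 (SD, n = 3; limma adjusted p = 0.378).

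Smc2, the partner ATPase of Smc4, gave -0.37, -1.08 and -0.34 on the treated-Cy5 arrays and 0.31, -0.12 and -0.25 on the treated-Cy3 arrays. On the treated-Cy5 arrays set 2 was the lowest, and on the treated-Cy3 arrays set 1 was above 0. The set means were -0.03, -0.60 and -0.29, and their mean was -0.31 ± 0.28 (SD, n = 3; limma adjusted p = 0.0846). Without set 1, on the 2 remaining sets, all 3 condensin genes passed in the lower direction. The limma adjusted p was then 0.0161 for Smc2 (-0.45), 0.0065 for Smc4 (-0.49) and 0.00925 for Ncapg (-0.48). Set 1 held the highest set mean of each, so its removal lowers them by construction and is no test of a decrease. Without set 2 or without set 3 none passed. The limma adjusted p was then 0.362 and 0.17 for Smc2, 0.983 and 0.873 for Smc4, and 0.97 and 0.663 for Ncapg. In the same set 1, Mki67 and Top2a had set means of -1.10 and -0.84. Most mitosis genes tested were below 0 in set 1, 34 on its treated-Cy5 array and 32 on its treated-Cy3 array. Genes outside this group, such as Esco2 and Mis12, were also above 0 in set 1 alone. Esco2 gave 0.50, -1.01 and -0.51 on the treated-Cy5 arrays and 0.51, -0.73 and -0.58 on the treated-Cy3 arrays. The cause of the set 1 values was not tested.

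Of the cytokinesis genes, 3 of 3 tested fell, with a median of -0.87. Racgap1, a subunit of the centralspindlin complex that works with the kinesin Kif23, had the lowest mean of all 37 genes. Its ratios were -1.29, -0.97 and -0.50 on the treated-Cy5 arrays and -1.97, -1.39 and -1.19 on the treated-Cy3 arrays. In every set the treated-Cy3 array was the lower one, and the mean was -1.22 ± 0.39 (SD, n = 3), 2.33-fold lower (limma adjusted p = 0.000535). Prc1, which bundles antiparallel microtubules of the central spindle, gave -0.92, -0.80 and -0.65 on the treated-Cy5 arrays and -1.07, -1.06 and -0.70 on the treated-Cy3 arrays. Its mean was -0.87 ± 0.17 (SD, n = 3; limma adjusted p = 0.000387).

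Ect2 encodes the exchange factor that activates RhoA at the cleavage furrow. Its ratios were -1.13, -0.93 and -0.95 on the treated-Cy5 arrays and -1.01, -0.47 and -0.43 on the treated-Cy3 arrays. All were below 0, and the mean was -0.82 ± 0.21 (SD, n = 3; limma adjusted p = 0.000776).

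Of the mitotic entry kinases and phosphatases, 5 of 6 tested fell, with a median of -0.60. Nek2, a kinase that separates the centrosomes, gave -1.02, -0.79 and -0.46 on the treated-Cy5 arrays and -1.22, -0.94 and -0.73 on the treated-Cy3 arrays. Its mean was -0.86 ± 0.26 (SD, n = 3; limma adjusted p = 0.000973). Aurka, the Aurora kinase of centrosomes and spindle poles, fell with a mean of -0.57 ± 0.24 (SD, n = 3; limma adjusted p = 0.00571). The phosphatases Cdc25b and Cdc25c activate cyclin-dependent kinase 1. Cdc25b had a mean of -0.64 ± 0.23 (SD, n = 3; limma adjusted p = 0.00301), and unlike most genes of the list it was lowest in set 3, at -0.81 and -0.97 on its 2 arrays.

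Cdc25c gave -0.83, -0.43 and -0.42 on the treated-Cy5 arrays and -0.70, -0.49 and -0.48 on the treated-Cy3 arrays. Its mean was -0.56 ± 0.18 (SD, n = 3; limma adjusted p = 0.00382). With its incomplete second probe kept the value was -0.31 (limma adjusted p = 0.0357), and with zeros kept -0.24 (limma adjusted p = 0.0482). Cks1b and Cks2 are closely related small proteins that bind cyclin-dependent kinases. Cks1b gave -1.004, -0.71 and -0.43 on the treated-Cy5 arrays and -1.15, -0.79 and -0.68 on the treated-Cy3 arrays, with a mean of -0.79 ± 0.26 (SD, n = 3; limma adjusted p = 0.00145). Cks2 gave 0.08, -0.20 and -0.35 on the treated-Cy5 arrays and 0.14, 0.09 and 0.10 on the treated-Cy3 arrays, with a mean of -0.02 ± 0.12 (SD, n = 3; limma adjusted p = 0.881). Every array of Cks1b was below every array of Cks2, and their difference was not tested. Probe sequences were not analysed here, so how far a probe of one could bind the other was not tested.

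Most mitosis genes lay below 0 on each array taken singly. Between 32 and 37 of the 37 genes were below 0 on an array, against 48.7% to 51.5% of all genes tested. The median of the 37 genes was -0.83, -0.80 and -0.56 on the treated-Cy5 arrays and -0.79, -0.65 and -0.53 on the treated-Cy3 arrays, for sets 1, 2 and 3. Set 3 was nearest to 0 in both orientations. Of the 37 genes, 30 (81.1%) had their set mean nearest 0 in set 3, against 42.3% of the 1171 genes called lower and 35% of all genes tested. After the arrays were scaled to the same spread, 28 of the 37 genes still had their set mean nearest 0 in set 3. The arrays of set 3 also had the most exact zeros of their orientations, 17.8% and 12.8% of probes against 7.97% to 9.64% on the other 4 arrays, and the part of this in the result was not tested.

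**Figure D2:**
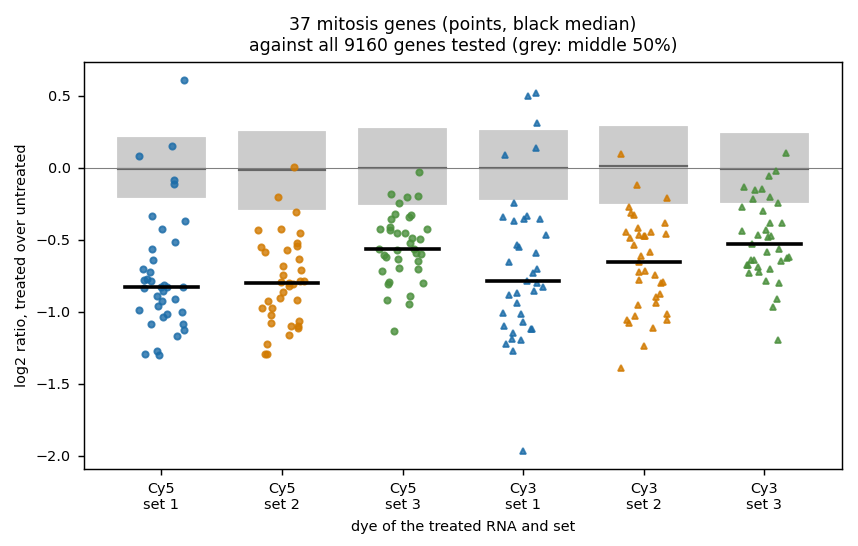
Log2 ratio of treated over untreated (vertical axis) for each of the 6 arrays, with points and a black median line for the 37 mitosis genes, and a grey box with its median line for the middle 50% of all genes tested. The median of the 37 genes lies between -0.83 and -0.53 on every array and is nearest 0 in set 3 of each orientation, while the median of all genes lies near 0.

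The genes were low in both dye orientations. With each orientation taken alone, 31 of the 37 genes fell on the treated-Cy5 arrays, against 8.88% of all genes tested (813 of 9160), and 28 fell on the treated-Cy3 arrays, against 11.1% (1021 of 9160). Bub1 passed in neither orientation alone (limma adjusted p = 0.0517 and 0.0567), and Ttk and Ndc80 did not pass on the treated-Cy3 arrays alone (limma adjusted p = 0.378 and 0.147). In 19 of the 37 genes the mean was lower on the treated-Cy5 arrays and in the other 18 on the treated-Cy3 arrays. The dye effect itself was tested with limma on the ratios before the sign was turned. At adjusted p it passed in 0 of the 37 genes, against 0.142% of all genes tested (13 of 9160). At an unadjusted limma p under 0.05 it was found in 13 of the 37 genes. The share of all genes at that looser threshold is not given here, so this last count has no background to be read against. Ube2c showed one of the plainer gaps, with -1.17, -1.02 and -0.89 on the treated-Cy5 arrays and -0.55, -0.45 and -0.47 on the treated-Cy3 arrays.

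**Figure D3:**
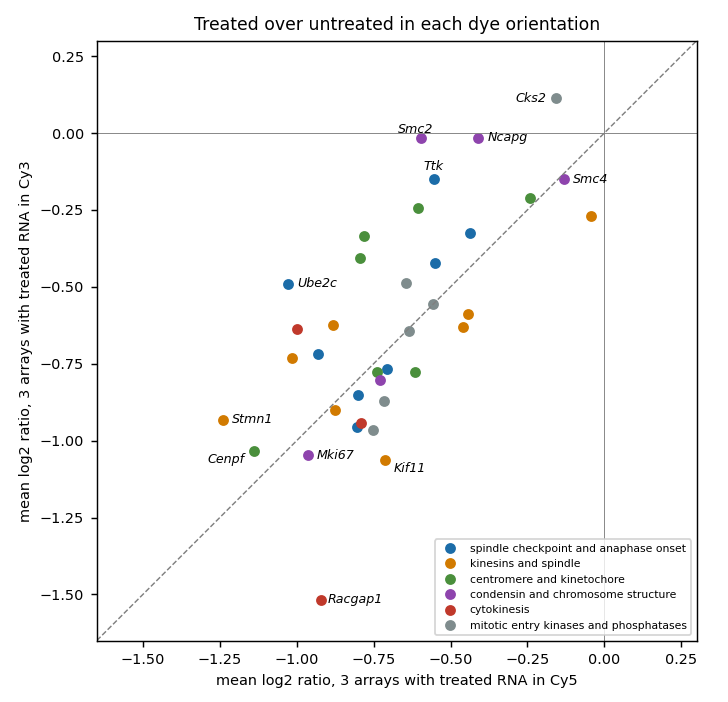
Mean log2 ratio over the 3 treated-Cy5 arrays (horizontal axis) against that over the 3 treated-Cy3 arrays (vertical axis) for the 37 mitosis genes, coloured by role group, with the line of equality. Points fall on both sides of the line, 19 of 37 having the lower value on the treated-Cy5 arrays, and nearly all lie below 0 on both axes.

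Probe means had the same sign wherever both probes of a gene were complete. Of the 17 genes with 2 probes, 13 had both measured on all 6 arrays, and 0 of these 13 had probe means of opposite sign. In a limma fit of single probes, 41 of the 50 probes of mitosis genes with a value on all 6 arrays fell and 0 rose, and 12.2% of all such probes fell (1556 of 12724). The probes of Ttk and Smc2 differed in their call. For Ttk one probe had a mean of -0.44 (limma adjusted p = 0.0151) and the other -0.26 (limma adjusted p = 0.124), the latter with -0.34, -0.59 and -1.04 on the treated-Cy5 arrays and 0.36, 0.03 and -0.01 on the treated-Cy3 arrays. For Smc2 one probe had a mean of -0.38 (limma adjusted p = 0.0209) and the other -0.23 (limma adjusted p = 0.261), the latter with -0.48, -1.45 and -0.30 on the treated-Cy5 arrays and 0.75, 0.14 and -0.07 on the treated-Cy3 arrays.

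These probes of Ttk and Smc2 read lower in every set on the treated-Cy5 arrays than in Cy3. One probe of Incenp did so as well, with -0.94, -1.52 and -0.79 against 0.24, 0.07 and -0.21, while its other probe was below 0 on all 6 arrays. Its 2 probe means were -0.52 and -0.59. The probes of Birc5 differed in size, with means of -0.81 and -0.39, and so did those of Hmmr, with -0.65 and -0.38. A second probe of Cdc20 and one of Nek2 were listed at 0 on 5 and 6 arrays and were left out. With zeros kept, averaging in these probes gave -0.39 for Cdc20 (limma adjusted p = 0.0367) and -0.43 for Nek2 (limma adjusted p = 0.0442). A second probe of Cdc25c, listed at 0 on 2 arrays, gave 0.50, 0.20, 0.21 and -0.40 on the other 4, so Cdc25c rests on 1 probe and its other probe did not read the same way.

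**Figure D4:**
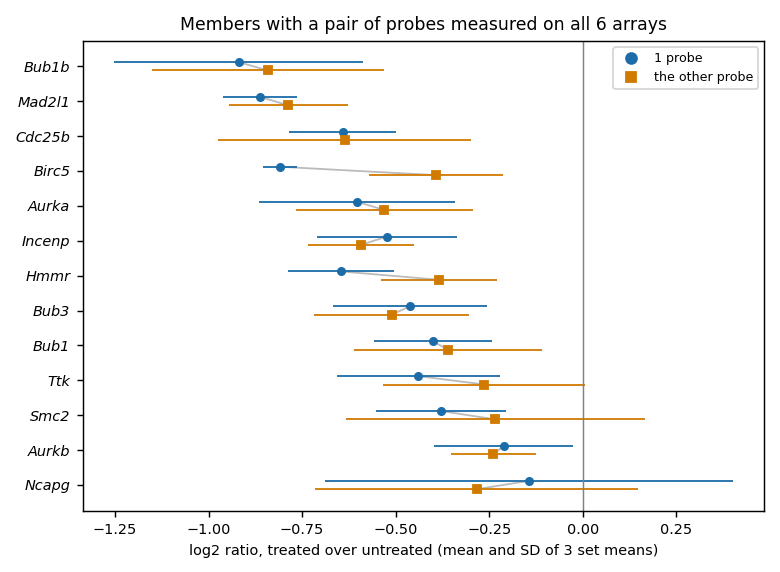
Mean log2 ratio of the 2 probes of each of the 13 mitosis genes that had both probes measured on all 6 arrays, with bars for the SD of the 3 set means and a line joining the probes of a gene. Both probes lie below 0 for all 13 genes, with Birc5 at -0.81 and -0.39 among the wider gaps.

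Other genes of mitosis, taken from lists that do not overlap the 45 genes, are given here by list. Of 143 such genes 90 were tested, and 43 fell and 4 rose, with a median of -0.28, beside 12.8% lower and 15% higher among all genes tested. The list of mitotic entry and cyclin B regulation had 12 of 14 (85.7%) lower and 1 higher, with a median of -0.77. Its lowest genes were the mitotic cyclins Ccnb2 (-1.04 ± 0.40) and Ccna2 (-1.01 ± 0.19), and its highest were Mastl (0.27 ± 0.10, limma adjusted p = 0.0447), the Greatwall kinase, and Gtse1 (-0.11), which did not pass. The call of Mastl was lost without set 1, set 2 or set 3 (limma adjusted p = 0.177, 0.0585 and 0.156). With zeros kept, Ccnb2 was at -0.52 (limma adjusted p = 0.0538). The list of other kinetochore and centromere genes had 15 of 26 (57.7%) lower and 0 higher, with a median of -0.31. The lowest were Pmf1 (-0.78 ± 0.03) and Spc24 (-0.76 ± 0.20), and the highest, Zwint (0.29) and Hjurp (0.15), did not pass. Without set 1 Zwint passed in the higher direction (0.40, limma adjusted p = 0.0329).

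The lists of cohesin, the anaphase-promoting complex and other condensin and topoisomerase genes hold machinery used at other times as well. Cohesin, which holds sister chromatids together and also shapes interphase chromosomes, had 3 of 9 (33.3%) lower and 1 higher, with a median of -0.06. Its ATPases Smc1a (-0.53 ± 0.17) and Smc3 (-0.33 ± 0.14) fell, the deacetylase Hdac8 rose (0.36 ± 0.07, limma adjusted p = 0.0142), and Stag2 was at 0.00. Smc3 did not pass without set 1 or set 2 (limma adjusted p = 0.0862 and 0.12), nor Hdac8 without set 2 or set 3 (limma adjusted p = 0.0636 and 0.0571). Smc3 also did not pass with zeros kept (limma adjusted p = 0.0725), nor Hdac8 and Smc1a on the treated-Cy5 arrays alone (limma adjusted p = 0.226 and 0.052). The anaphase-promoting complex had 3 of 11 (27.3%) lower and 0 higher, with a median of -0.13. Those lowest were Fbxo5 (-0.58 ± 0.11), its inhibitor Emi1, and Fzr1 (-0.33 ± 0.05), its activator Cdh1, and the core subunits Anapc10 (0.39) and Anapc16 (0.22) did not pass. Without set 1 or set 2 Fzr1 did not pass (limma adjusted p = 0.0775 and 0.057), and without set 3 Anapc10 passed in the higher direction (0.55, limma adjusted p = 0.0207). Of the other condensin and topoisomerase genes 0 of 2 passed in limma, at -0.17 for Top1 and 0.41 ± 1.15 for Top2b, the latter with a wide spread between sets.

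The list of other spindle and centrosome genes had 8 of 16 (50%) lower and 2 higher, with a median of -0.30. Aspm (-1.05 ± 0.19), a spindle pole protein, and Haus4 (-0.77 ± 0.06), an augmin subunit, were lowest. Sass6 (0.75 ± 0.10, limma adjusted p = 0.000469), which forms the centriole cartwheel, and Ndel1 (0.39 ± 0.01, limma adjusted p = 0.00794), a dynein regulator, rose. Ndel1 did not pass on the treated-Cy3 arrays alone (limma adjusted p = 0.147). Other cytokinesis genes had 2 of 12 (16.7%) lower and 0 higher, with a median of 0.00, a share near the 12.8% of all genes tested. The citron kinase Cit (-0.71 ± 0.30) and the midbody protein Cep55 (-0.54 ± 0.12) fell. Cit did not pass with zeros kept (-0.36, limma adjusted p = 0.0689) or on the treated-Cy5 arrays alone (-0.49, limma adjusted p = 0.0511). Septin7 (0.49) and Rock1 (0.31) did not pass. Without set 3 Septin7 passed (0.69, limma adjusted p = 0.0256). All errors are the SD of 3 set means.

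DNA replication genes, which act in S phase before mitosis, had 27 of 40 (67.5%) lower and 1 higher, with a median of -0.43. Thymidine kinase Tk1 (-0.82 ± 0.19) and the helicase subunit Mcm7 (-0.67 ± 0.24) were lowest (SD, n = 3 for each). Orc5 rose (0.28 ± 0.11, limma adjusted p = 0.0416), and Cdc45 (0.21) did not pass. The call of Orc5 was lost without set 1, set 2 or set 3 (limma adjusted p = 0.183, 0.125 and 0.057). Whether the mitosis genes fell more than the replication genes was not tested.

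**Figure D5:**
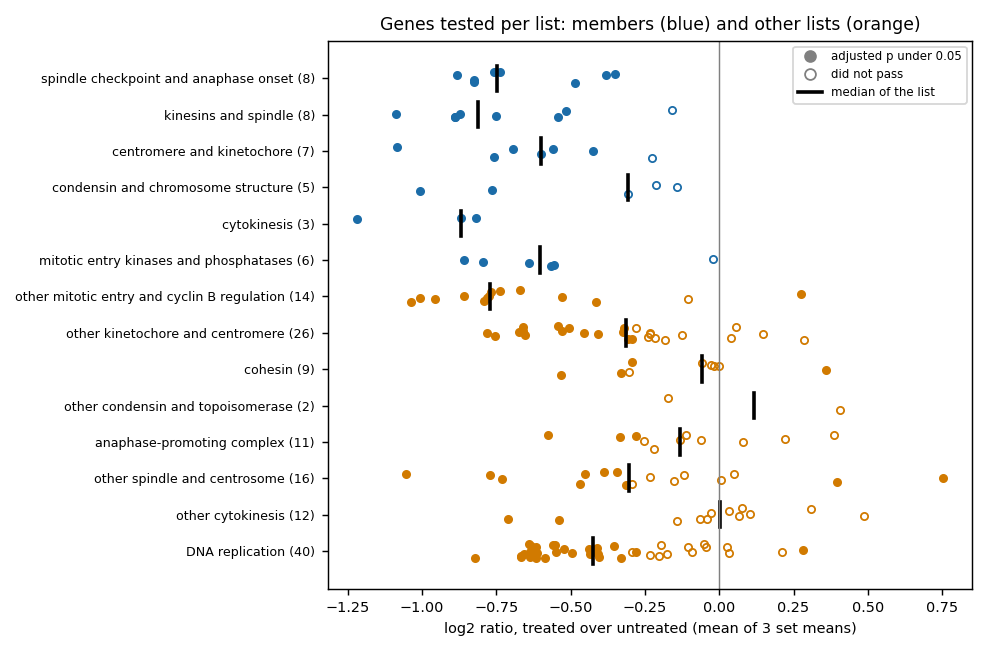
Log2 ratio of treated over untreated for single genes (filled points passed, open points did not) and the median of each list (black line), for the 6 role groups of mitosis genes, the other mitosis lists and DNA replication. The medians of the role groups run from -0.87 for cytokinesis to -0.31 for condensin and chromosome structure, and those of cohesin and of other cytokinesis genes are -0.06 and 0.00.

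The direction of the ratios and the makeup of the cultures were looked at beside these results. Genes that LPS is known to induce all rose, with Il6 at 3.81, Il1b at 3.53, Nos2 at 1.11 and Tnf at 0.96, in the direction taken from the labelled dyes. Before the sign was turned, the correlation across probes was -0.66 to -0.41 between arrays with exchanged dyes and 0.67 to 0.77 between arrays with the same dyes. Among 24 tested markers of cells other than macrophages, 3 were higher (12.5%) and 1 was lower (4.17%) in treated cells. Among all genes tested the shares were 15% and 12.8%. Those higher were the fibroblast gene Dcn (2.68 ± 0.95), the B cell gene Cd79a (0.63 ± 0.11) and the red cell gene Hba-a1 (0.59 ± 0.28). Other fibroblast genes did not pass, namely Col1a1 (0.01), Col1a2 (0.07), Col3a1 (-0.21), Pdgfra (-0.15) and Pdgfrb (0.01). The B cell genes Cd79b (-0.07) and Ms4a1 (0.02) did not pass either. The lower marker was the liver gene Alb (-0.26), whose call was lost without set 1, set 2 or set 3 (limma adjusted p = 0.112, 0.0888 and 0.201). Of 6 tested macrophage genes Adgre1 rose (0.94) and Csf1r fell (-0.53 ± 0.22), the errors being the SD of 3 set means. With zeros kept, neither Hba-a1 nor Csf1r passed (limma adjusted p = 0.0711 and 0.0609). The part of these in the mitosis result was not tested.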

How the data were processed

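All 6 arrays of RAW 264.7 RNA were used. The authors deposited 1 log ratio (read as log2) of Cy5 over Cy3 per probe and array. Direction comes from the dyes in the labels. The log base, scanner, background correction and normalization are steps not given in the sources used here. Exact zeros (7.97% to 17.8% of an array) were taken as placeholders and set to missing. Of 16281 probes, 13738 had 1 gene symbol in the platform annotation, 52 several and 2491 none, and RefSeq (GRCm38.p6) matched 13694 by gene ID, changing 0 symbols. Probes complete on 6 arrays (12724) were averaged per symbol. Ratios were turned to treated over untreated, orientations averaged per set, and 3 set means tested against 0 with limma 3.58.1 (R 4.3.3; lmFit, eBayes). On simulated data the fit recovered 47 of 100 changes of size 0.5 and 89 of 100 of size 1, with 3 false calls. The simulated arrays were independent, whereas arrays of a set here had a consensus correlation of 0.355, so real error rates may differ. Intensities were not analysed here. The number of arrays limits the precision. The members and lists were chosen with earlier results of these data known. Array values are given for the 2 lowest and 2 highest members of a group and for probes that disagree, plus Ube2c, Kif4 and Ect2's group in full, and each other list by its 2 lowest and 2 highest genes. Alternatives covered zeros, probes, sets, dye orientation, replicate blocks, centring and scaling. Unmapped columns numbered 0. Ube2c and the Cdc25b arrays were singled out after their values were seen.

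Same-numbered arrays deviated together at correlations of 0.54, 0.08 and 0.18 in sets 1, 2 and 3. Arrays of different numbers gave -0.38 to 0.14. Each treated-Cy5 array had its highest correlation with the treated-Cy3 array of its own number. The treated-Cy3 array of set 2 was closer to treated-Cy5 set 3 (0.14) than to treated-Cy5 set 2 (0.08). By that measure the numbers paired most but not all arrays, and the labels do not say what a set shares.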

Additional observations from a re-analysis of the deposited data

How the results depend on the processing

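Of the 31 mitosis genes that fell, 24 passed in the same direction under every alternative that gives a value per gene. Bub1, Bub3, Ttk, Tpx2, Ndc80, Aurka and Cks1b lost their call in at least 1. The number of mitosis genes that fell was 24 with zeros kept as values, 33, 28 and 30 without set 1, 2 or 3, 32 with incomplete probes kept, and 31 with arrays centred or scaled. The median stayed between -0.80 and -0.62. Genes of the whole array that fell numbered 634 of 10698 with zeros kept and 1106 of 10252 with incomplete probes kept. They numbered 747 to 886 of 9160 with a set left out, where fewer samples entered the test. For centring, scaling and the replicate blocks the count over all genes is not given here. With no replicate block (6 arrays and a dye term) 32 mitosis genes fell, Aurkb being added (limma adjusted p = 0.048), and with the set as a random replicate block 31 fell. The dye effect passed in 0 genes of the array with zeros kept. Some values that had not passed changed sign. Leaving out a set gave -0.49 to 0.063 for Smc4, -0.089 to 0.029 for Cks2, -0.26 to 0.77 for Top2b and -0.072 to 0.073 for Stag2. With treated RNA in Cy3 alone Cks2 was 0.11, Hjurp -0.070, Stag2 0.093 and Top1 0.023. Stag2 was 0.0067 after centring and 0.0062 after scaling. The cause of these changes was not tested.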
